A study of Mus musculus with 4 samples.

Results

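Glycolysis and glucose entry genes were followed in the peak lists of a chromatin immunoprecipitation experiment (ChIP-seq) on HA-tagged Fbxl10. The 31 genes were taken by name from the steps of the pathway: glucose transport, the enzymes of glycolysis, lactate dehydrogenase and lactate transport, and the pyruvate dehydrogenase kinases. All 31 were found among 21887 protein-coding genes of the RefSeq annotation. The cells were mouse embryonic fibroblasts (MEFs) from a gain-of-function model that carries an HA-tagged Fbxl10 inducible with doxycycline. The induced group had received 1 µg/ml doxycycline for 48 hours and the non-induced group had not, so both carry the transgene. The HA antibody (5 µg) was added to 7 µg of chromatin from each group, and an input library of each group was also made. The induced list holds 5497 peaks and the non-induced list 10532. What drives the transgene, and the age and number of embryos behind the MEFs, were not stated. The labels describe 4 libraries, 1 per group. The protocol mentions 3 independent samples, without saying which of them stand behind each list. Each condition has 1 peak list, so the values have no replicate check, no test was run, and every comparison is between lists and not between conditions. A peak list holds no expression, so the labelled cell type could not be checked against its markers.

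Glycolysis splits glucose into pyruvate in the cytosol, and pyruvate is then either reduced to lactate and exported or burned in mitochondria, a choice that the pyruvate dehydrogenase kinases influence by restraining entry into mitochondria. Most steps are served by several isozymes, with broadly expressed forms in proliferating cells such as fibroblasts and other forms in muscle, liver, brain or blood cells. Fbxl10, also called Kdm2b, is a histone demethylase whose zinc finger domain of the CXXC type binds unmethylated CG dinucleotides, and it belongs to a variant Polycomb complex. It is known to bind promoters rich in CG.

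In the induced list, peaks stood at the starts of 9 of the 31 genes, and these genes were spread along the pathway from glucose phosphorylation to lactate export. A gene was counted when a peak lay within 1 kb of either end of it. The 9 genes were Hk2, Gpi1, Pfkl, Gapdh, Pgam1, Pkm, Pdk2, Slc16a1 and Slc16a3, which is 29.0% of the members (exact 95% binomial interval 14.2% to 48.0%, for counting error only). By the same rule 13.4% of all protein-coding genes had an induced peak. In the non-induced list 0 of the 31 genes had a peak within 1 kb, and 1.59% of all genes did. Taking a count of 0 to allow 3 counts gives a share of up to 9.68%, and the exact interval is 0% to 11.2%. Within 5 kb, 12 members (38.7%, 21.8% to 57.8%) had an induced peak, Aldoa, Tpi1 and Eno3 being added, and 18.4% of all genes did. Within 5 kb 0 members had a non-induced peak, against 5.36% of all genes, so both non-induced counts lie near the background and say nothing particular about the members. With a score of at least 100, 5 members had an induced peak within 1 kb, against 4.25% of all genes, and 6 within 5 kb, against 5.71%.

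**Figure D1:**
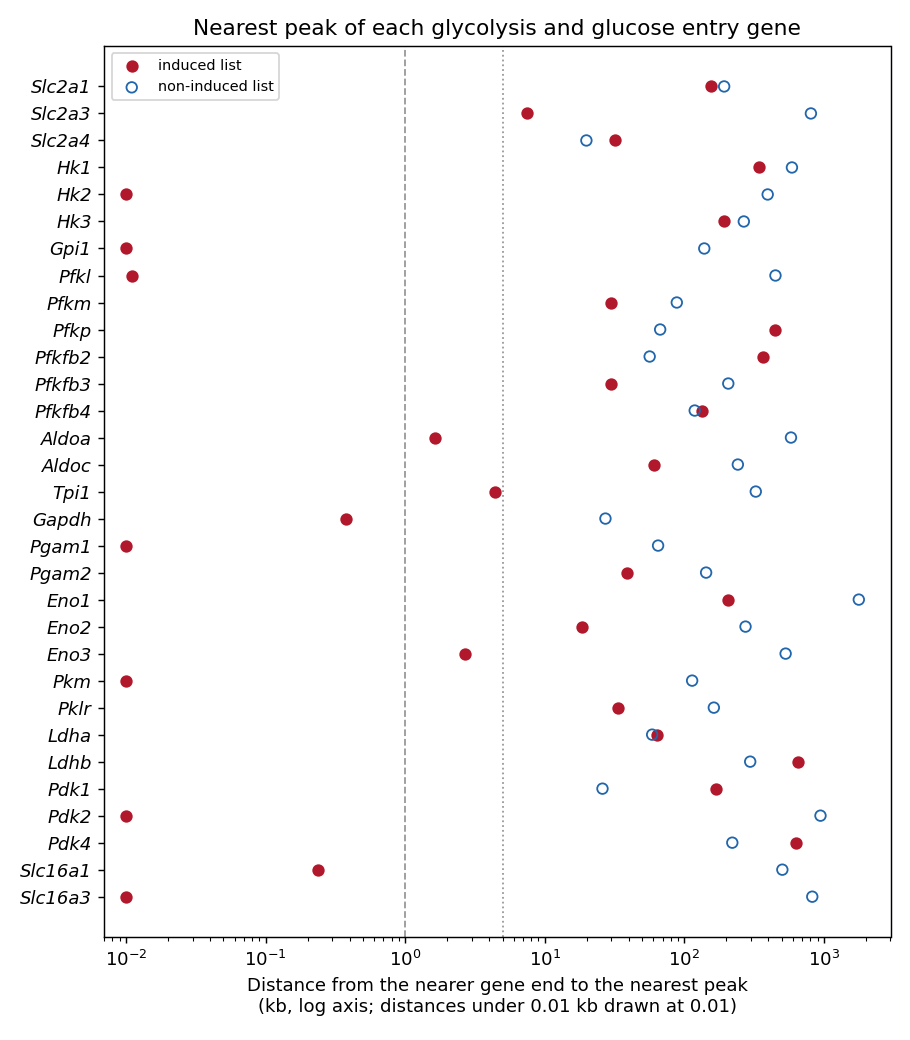
Distance from the nearer end of each gene to the nearest peak, in kb on a log axis, for the induced (filled) and the non-induced list (open). Genes run in pathway order from the top, the dashed line marks 1 kb and the dotted line 5 kb. Left of the dashed line lie 9 induced points and 0 non-induced points.

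Distances rest on the same peaks and gene ends as the counts, so they describe the same split and are no separate support. For 23 of the 31 members (74.2%) the nearest induced peak was closer than the nearest non-induced peak, as it was for 56.3% of all genes. The median distance to the nearest induced peak was 29.9 kb over the members, against 89.9 kb over all genes. To the nearest non-induced peak it was 221 kb over the members, against 138 kb over all genes. The values for all genes include chromosome X, which had 14 induced and 47 non-induced peaks, while all 31 members are autosomal. The closest non-induced peak to any member lay 19.9 kb from Slc2a4. With no non-induced peak nearer than that, the 13 induced peaks within 5 kb of a member could not overlap one. The overlap over all induced peaks was not counted.

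The start sequences of 6 members are shown because induced peaks were more frequent at starts rich in CG, as the values given later show. The sequences are RefSeq start windows of build GRCm38.p6 (the coordinates of mm10), from 250 bases before to 50 after a transcription start, with every CG in capitals. Of these, 4 hold a start that is covered by one of the highest-scoring induced peaks: Gpi1 (chr7:34230287-34230586, minus strand, 21 CG), an inner start of Aldoa (chr7:126799205-126799504, minus strand, 24 CG), Gapdh (chr6:125165724-125166023, minus strand, 12 CG) and Pkm (chr9:59656326-59656625, plus strand, 27 CG). The Aldoa peak reached only 97 bp upstream of that start, so the earlier 150 bases of its window lie outside the peak. The Pkm peak reached 231 bp upstream of the start shown.
Gpi1: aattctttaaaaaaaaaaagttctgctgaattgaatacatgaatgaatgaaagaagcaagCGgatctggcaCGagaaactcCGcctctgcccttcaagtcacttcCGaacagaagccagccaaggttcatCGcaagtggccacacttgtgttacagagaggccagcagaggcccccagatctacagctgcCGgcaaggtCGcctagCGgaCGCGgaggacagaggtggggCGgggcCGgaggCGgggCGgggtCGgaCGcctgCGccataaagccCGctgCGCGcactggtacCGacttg
Aldoa: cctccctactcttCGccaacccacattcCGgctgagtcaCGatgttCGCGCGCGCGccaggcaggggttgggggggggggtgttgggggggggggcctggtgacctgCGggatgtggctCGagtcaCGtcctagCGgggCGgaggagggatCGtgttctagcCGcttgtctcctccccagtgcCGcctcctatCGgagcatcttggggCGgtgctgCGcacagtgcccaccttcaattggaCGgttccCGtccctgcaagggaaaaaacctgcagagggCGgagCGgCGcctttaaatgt
Gapdh: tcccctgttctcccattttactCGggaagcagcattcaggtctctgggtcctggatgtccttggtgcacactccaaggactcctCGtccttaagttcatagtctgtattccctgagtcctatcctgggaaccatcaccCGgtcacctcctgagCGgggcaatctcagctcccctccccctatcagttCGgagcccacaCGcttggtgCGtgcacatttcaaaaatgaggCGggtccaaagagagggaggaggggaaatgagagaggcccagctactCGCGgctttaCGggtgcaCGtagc
Pkm: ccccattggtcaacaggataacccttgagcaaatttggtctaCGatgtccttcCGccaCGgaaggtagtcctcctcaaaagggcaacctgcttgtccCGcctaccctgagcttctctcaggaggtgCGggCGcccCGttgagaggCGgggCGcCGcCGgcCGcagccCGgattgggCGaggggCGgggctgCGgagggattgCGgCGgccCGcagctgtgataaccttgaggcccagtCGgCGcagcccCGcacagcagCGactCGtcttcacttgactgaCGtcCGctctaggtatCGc
The other 2 are from members without a peak within 5 kb in either list, the earliest in pathway order with a listed start: Slc2a1 (chr4:119108495-119108794, plus strand, 18 CG) and the outer start of Hk1 (chr10:62379859-62380158, minus strand, 1 CG). A further listed start of Hk1, inside the gene, has 20 CG in its window and no peak over it either.
Slc2a1: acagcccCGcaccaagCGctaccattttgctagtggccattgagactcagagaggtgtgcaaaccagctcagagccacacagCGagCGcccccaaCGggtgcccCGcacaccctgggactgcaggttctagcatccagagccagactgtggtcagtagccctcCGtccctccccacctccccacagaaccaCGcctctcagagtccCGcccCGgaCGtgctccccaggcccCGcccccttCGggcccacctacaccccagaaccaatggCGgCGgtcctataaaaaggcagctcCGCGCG
Hk1: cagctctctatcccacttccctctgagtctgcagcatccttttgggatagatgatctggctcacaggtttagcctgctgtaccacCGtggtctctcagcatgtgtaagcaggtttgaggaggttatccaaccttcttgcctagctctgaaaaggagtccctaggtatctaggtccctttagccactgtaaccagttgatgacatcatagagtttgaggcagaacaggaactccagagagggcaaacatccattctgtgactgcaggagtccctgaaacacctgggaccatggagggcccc
In Gpi1, 16 of the 21 CG lay in the last 150 bases, next to the start, and in Pkm 19 of 27 did. In Gapdh 9 of 12 did and in Slc2a1 12 of 18, while the Aldoa window had 13 in its earlier and 11 in its later 150 bases.

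Of the 3 glucose entry genes 0 had an induced peak within 5 kb of an end, against 18.4% of all genes. With so few genes this count lies near the background. Slc2a1, the broadly expressed glucose transporter, lay 156 kb from the nearest induced peak and 193 kb from the nearest non-induced peak. Slc2a4, the insulin-responsive transporter of muscle and fat, lay 31.8 kb from an induced and 19.9 kb from a non-induced peak. Slc2a3, the high-affinity transporter of neurons, was the member nearest outside the 5 kb window, with an induced peak (score 87.7) 7.50 kb beyond an end of the gene. A further induced peak lay inside Slc2a3, 13.6 kb from its nearer end (chr6:122741386-122742045), with a score of 50.5, which is at percentile 2.20 of its list.

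Hexokinases trap glucose in the cell by phosphorylating it, and 1 of the 3 members had an induced peak within 1 kb, against 13.4% of all genes. With so few genes this count lies near the background. Hk2, the insulin-responsive form of muscle and fat (gene 15277, chr6:82725025-82774454, minus strand), had an induced peak of 866 bp across its start (chr6:82773982-82774847). The score was 58.9, the authors' own value for the peak, and lay at percentile 34.8 of the induced list, whose scores begin at 50 and have a median of 66.6. Hk1, the general form, lay 344 kb from the nearest induced peak and 590.3 kb from the nearest non-induced one. Hk3, of blood cells, lay 191 kb and 267 kb away.

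Gpi1, glucose phosphate isomerase, had the highest-scoring peak of all members. Its gene (14751) spans chr7:34201327-34230336 on the minus strand. The peak over the start (chr7:34229360-34230685, 1326 bp) had a score of 211 and stood at percentile 97.9 of the induced list. It reached from 349 bp upstream to 976 bp downstream of the start. A further induced peak of 1527 bp and score 149.51 (percentile 93.1) began 3224 bp upstream, so that Gpi1 alone among the members had 2 induced peaks within 5 kb of an end. The nearest non-induced peak lay 139 kb away.

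Phosphofructokinase makes the committed step of glycolysis, and its liver-type subunit Pfkl was marked while Pfkm and Pfkp had no peak near them. Pfkl (gene 18641, chr10:77986947-78009807, minus strand) had an induced peak of 948 bp and score 151 that ended 11 bp upstream of its start (chr10:78009818-78010765). The muscle subunit Pfkm lay 29.8 kb from an induced and 88.4 kb from a non-induced peak. The platelet subunit Pfkp lay 446 kb and 67.2 kb away. Scores of the marked isozymes differed, since the Pfkl peak stood at percentile 93.2 and the Hk2 peak in the lower part of the list.

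Enzymes of the Pfkfb family set the level of the sugar bisphosphate that activates phosphofructokinase, and none had a peak within 5 kb of an end. Against 18.4% of all genes with an induced peak there, 0 of 3 lies near the background. Pfkfb3, the form of proliferating and hypoxic cells, had an induced peak inside the gene (chr2:11501316-11502274, score 55.8, percentile 24.8) that covered an inner RefSeq start 52.0 kb from the outer end. Its outer start, with 30 CG in its window, had no peak over it. Pfkfb2 lay 366 kb from an induced and 56.5 kb from a non-induced peak. Pfkfb4 lay 134 kb and 119 kb away.

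Aldoa, the aldolase of muscle and most other cells, showed the same arrangement with a higher score. Its induced peak (chr7:126798145-126799351, 1207 bp, score 139.66, percentile 91.3) lay 1643 bp inside the outer end and so missed the 1 kb window. It covered inner starts at 1740 and 1816 bp from that end, whose windows hold 24 and 23 CG, and did not reach the outer listed start, whose window holds 0 CG. Aldoc, the brain form, lay 60.5 kb from an induced and 242 kb from a non-induced peak. Tpi1, triose phosphate isomerase, had an induced peak only beyond its downstream end, 4400 bp away (score 66.0), and none at its start.

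Gapdh, which oxidises glyceraldehyde phosphate and yields the NADH of glycolysis, had an induced peak of 1321 bp with a score of 137 (percentile 90.9) over its start. Gene 14433 spans chr6:125161852-125166467 on the minus strand and the peak chr6:125164769-125166089. The peak lay 378 bp from the annotated end of the gene and covered the listed start, which stands 694 bp inside that end. It extended from 316 bp upstream to 1004 bp downstream of that start. The nearest non-induced peak lay 27.2 kb away.

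Of the mutases, Pgam1, the general form, had an induced peak across its start (chr19:41911282-41912001, 720 bp) with a score of 58.3, at percentile 33.4. Pgam2, the muscle form, lay 38.7 kb from an induced and 143 kb from a non-induced peak. Of the 3 enolase genes 0 had an induced peak within 1 kb, against 13.4% of all genes, so this count lies near the background. Eno1, the general form, lay 205 kb from an induced and 1779 kb from a non-induced peak, and the windows of its 3 listed starts hold 14, 24 and 25 CG. Eno2, of neurons, lay 18.5 kb and 275 kb away. Eno3, of muscle, had an induced peak 2690 bp inside the gene (score 52.9, percentile 14.0), which ended 600 bp before its listed start and lay within 1 kb of an end of Pfn1, the gene of the actin-binding protein profilin. This peak cannot be given to either gene.

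Pkm, the pyruvate kinase of most tissues (gene 18746, chr9:59656576-59679372, plus strand), had an induced peak of 1201 bp and score 118.07 (percentile 86.6) that covered both of its listed starts, 651 bp apart. Pklr, the liver and red cell form, lay 33.3 kb from an induced and 163 kb from a non-induced peak. Of the 2 lactate dehydrogenase genes 0 had an induced peak within 5 kb, against 18.4% of all genes, so this count lies near the background. Ldha, which favours lactate formation, lay 63.8 kb from an induced and 58.9 kb from a non-induced peak, and the window of its outer listed start holds 30 CG. Ldhb, the form prominent in heart, lay 656 kb and 297 kb away.

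At the exit of the pathway both monocarboxylate transporters and 1 of the 3 kinases had an induced peak within 1 kb, against 13.4% of all genes. With so few genes, 1 of 3 lies near the background, and the transporter count rests on 2 genes only. Slc16a1, which carries lactate and pyruvate across the membrane (gene 20501, chr3:104638664-104658462, plus strand), had an induced peak of 887 bp and score 118.0 that ended 236 bp upstream of its start. Slc16a3, the lactate exporter of glycolytic cells, had a narrower induced peak of 548 bp and score 53.8 (percentile 17.9), which ended 168 bp upstream of its listed start. Pdk2, a widely expressed kinase that inhibits pyruvate dehydrogenase, had an induced peak of 969 bp and score 70.7 (percentile 55.7) across its start. Pdk1, a hypoxia-responsive kinase, lay 169.6 kb from an induced and 25.9 kb from a non-induced peak. Pdk4, the fasting-responsive kinase, lay 635 kb and 221 kb away.

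**Figure D2:**
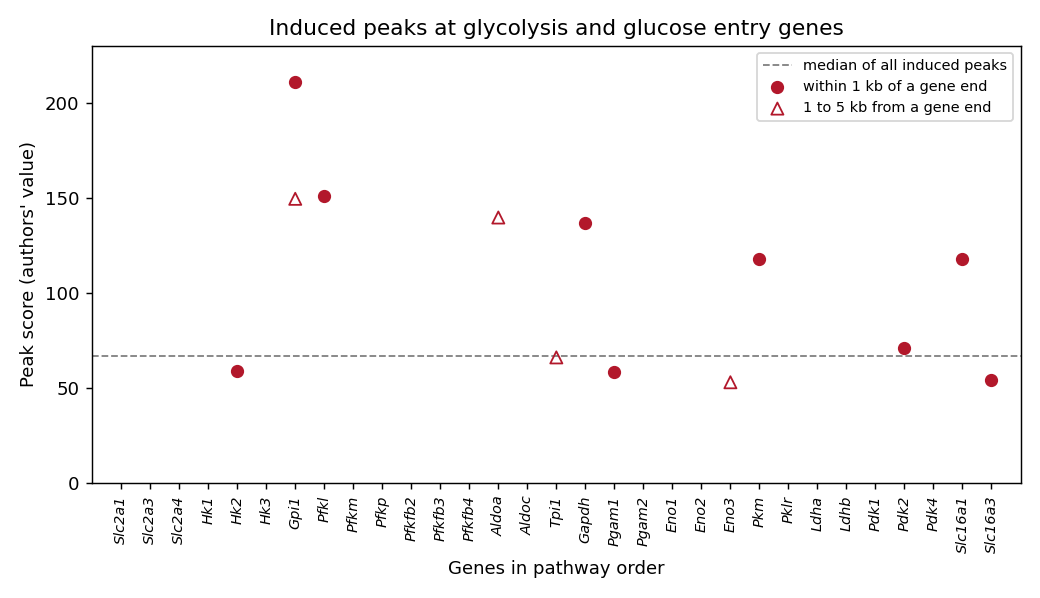
Score of each induced peak within 5 kb of an end of a member, with genes in pathway order on the horizontal axis and the authors' score on the vertical axis. Filled circles lie within 1 kb and open triangles at 1 to 5 kb, and the dashed line is the median of all induced peaks (66.6). Gpi1 has the highest value (211) and Eno3 the lowest (52.9).

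The 9 peaks within 1 kb were 9 different peaks, and none lay within 1 kb of another protein-coding gene. Their scores ranged over 53.8 to 211 with a median of 118, against a median of 78.6 for the 2591 induced peaks at ends of any protein-coding gene. A score of at least 100 was reached by 5 of the 9 (55.6%), against 29.9% of those 2591 peaks. Their widths ran from 548 to 1326 bp with a median of 948 bp, against 864 bp. All 9 stood at the upstream end of their gene, 6 of them covering a listed start and the other 3, at Pfkl, Slc16a1 and Slc16a3, ending upstream of it. Just inside the 1 kb limit were Gapdh (378 bp) and Slc16a1 (236 bp), and just outside it Aldoa (1643 bp) and Eno3 (2690 bp). Just inside the 5 kb limit were Tpi1 (4400 bp) and Eno3, and just outside it Slc2a3 (7502 bp) and Eno2 (18459 bp). No member lay between 378 and 1643 bp, and the count of 9 was the same with a window of 500 bp, where 11.3% of all genes had a peak.

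**Figure D3:**
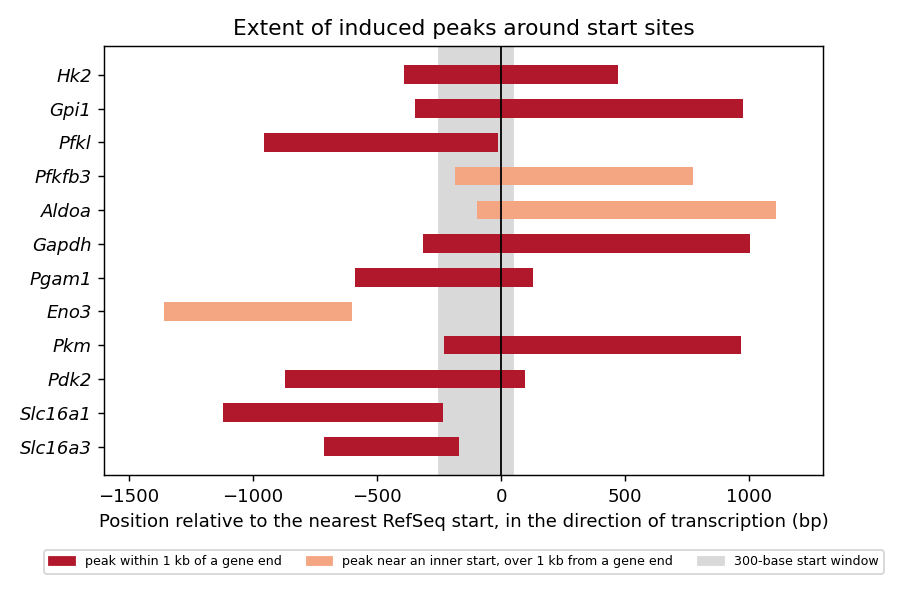
Extent of the 12 induced peaks within 1 kb of a listed start of a member, in bp relative to that start and in the direction of transcription. Dark bars are peaks within 1 kb of an end of the gene, light bars those farther inside it, and the grey band is the 300-base start window. Pfkl, Slc16a1, Slc16a3 and Eno3 end upstream of the start, and the other 8 cross it.

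When distance was taken to any listed start in place of the ends of the gene, a choice made after the values were seen, Aldoa, Eno3 and Pfkfb3 joined the 9. Of 29 members with a listed start 12 (41.4%, 23.5% to 61.1%) then had an induced peak within 1 kb, against 14.0% of all genes with one. In the non-induced list 0 of the 29 did, against 0.972% of all genes. Slc2a3 and Slc2a4 have no entry in the table of start sequences.

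Start windows under an induced peak held more CG than the other windows of the members. The 29 members have 46 listed start windows, some of which overlap, and 13 windows of 11 genes were overlapped by an induced peak by at least 1 base (28.3%, against 9.26% of 21263 windows of all protein-coding genes). By a non-induced peak 0 of the 46 member windows were overlapped, against 0.23% of all windows. The 13 windows held 12 to 42 CG with a median of 24, and the other 33 held 0 to 30 with a median of 12. Over all windows the median was 13. The window with the most, Slc16a1 with 42 CG, was overlapped by its peak, as was that of Slc16a3 with 36. These 2 peaks ended 236 and 168 bp upstream of the start, so each overlapped only the upstream part of its window. Of the 15 member windows with under 10 CG, 0 had an induced peak, against 1.15% of all such windows, so this count lies at the background and says nothing particular about the members. Of the 31 with at least 10 CG, 13 had one, against 15.4% of all such windows.

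Over all protein-coding genes the share of windows under an induced peak went up with CG count over most of the range. It was 0.365% for 0 to 4 CG, 2.66% for 5 to 9, 9.43% for 10 to 14 and 14.1% for 15 to 19. It was 17.6% for 20 to 24, 20.3% for 25 to 29 and 15.8% for 30 or more. For the non-induced list the share lay between 0.122% and 0.505% in the 7 classes. Induced peaks were thus more frequent at CG-rich starts in the annotation as a whole.

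Among CG-rich members some had a peak and some did not. At a limit of 20 CG at some listed start, a limit chosen after the values were seen, 10 of 15 such members had an induced peak over a start window, against 18.6% of all genes of that kind. They were Hk2, Gpi1, Pfkl, Pfkfb3, Aldoa, Pgam1, Pkm, Pdk2, Slc16a1 and Slc16a3. The 5 without were Hk1, Pfkp, Eno1, Ldha and Pdk1. Of 14 members under that limit 1 had a peak, Gapdh with 12 CG, against 4.66% of all such genes. Slc2a1 (18 CG), Ldhb (17 CG), Tpi1 (15 CG) and Eno2 (15 CG) were among the 13 without.

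**Figure D4:**
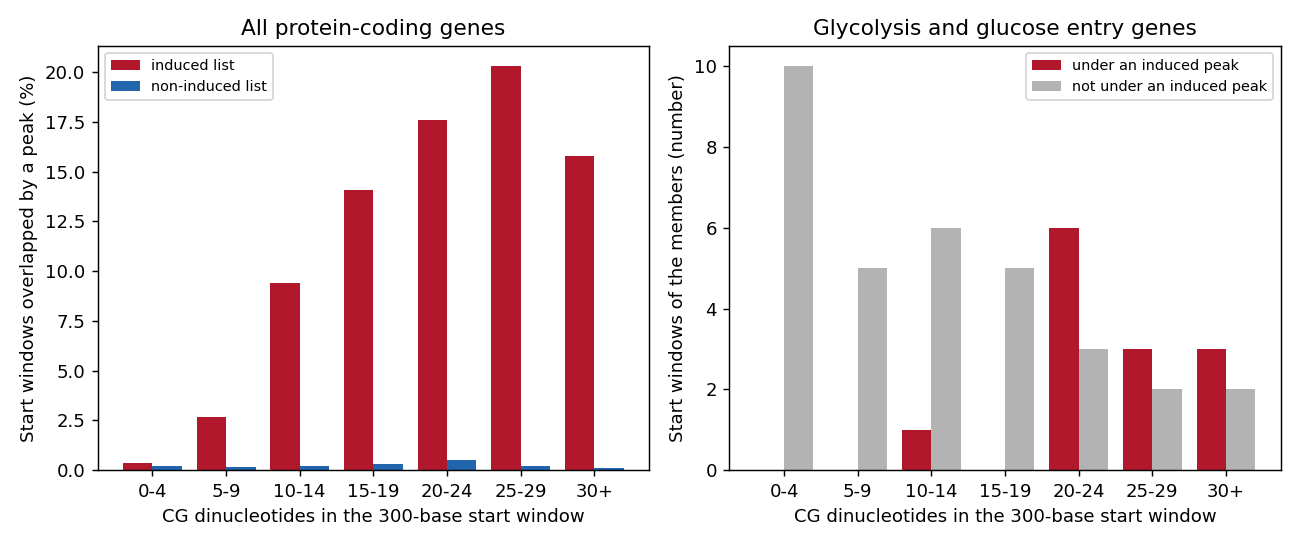
Left, share of 300-base start windows of all protein-coding genes overlapped by an induced or a non-induced peak, in percent, by number of CG dinucleotides. Right, number of member start windows under an induced peak and not under one in the same classes. The induced share is 0.365% in the lowest class and 20.3% for 25 to 29 CG, and 12 of the 13 overlapped member windows have 20 or more CG.

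Motifs known from the control of glycolysis genes were also looked for in the windows, on both strands. The core of the hypoxia response element, ACGTG or GCGTG, was found in 11 of the 13 windows under an induced peak and in 23 of the 33 others. It was found in 49.3% of all windows of protein-coding genes. The E-box CACGTG, which contains ACGTG, was found in 3 of the 13, those of Pfkfb3, Pdk2 and Slc16a1, in 3 of the 33 others, and in 7.84% of all windows. All of these motifs contain CG, so their counts and the CG count are not independent, and a match is a description of the letters.

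Other genes of glucose metabolism were taken from a list of 83 genes that are not members. In the induced list 17 of them (20.5%, 12.4% to 30.8%) had a peak within 1 kb, against 13.4% of all genes. A non-induced peak lay there at 0 of them, against 1.59% of all genes. Taking that 0 to allow 3 counts gives up to 3.61%, and the exact interval is 0% to 4.35%. Within 5 kb 21 (25.3%) had an induced peak, against 18.4% of all genes, and 4 (4.82%) a non-induced peak, against 5.36%. Both non-induced counts lie near the background. The pyruvate dehydrogenase complex and its regulators had 3 of 10. These were Dlat, its acetyltransferase (score 103), Pdhx, its anchoring subunit (108), whose peak also lay within 1 kb of Apip, and Dld, its lipoamide dehydrogenase (60.8). The pentose phosphate pathway had 2 of 9, Pgd (80.7) and Pgls (57.2), which encode consecutive enzymes of its oxidative branch. Of genes of glycogen and other sugars, peaks stood at the galactose enzyme gene Galt (64.0), the glycogen synthase gene Gys1 (61.3, also within 1 kb of Ruvbl2) and the phosphorylase gene Pygb (53.8).

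Both Gpd1l (80.5) and Gpd2 (69.1) of the 3 genes of the glycerol phosphate shuttle had an induced peak. Of 12 known regulators of glycolysis genes 3 did, namely Myc, with peaks of 157 and 52.6, the oxygen sensor Egln1 (102) and the hypoxia factor gene Epas1 (68.0). Of further isozymes of glycolysis 2 of 11 did, Adpgk (54.3) and the sperm form Gapdhs (76.8), which lay at its downstream end and within 1 kb of Tmem147. Of 8 further transporters of the Slc2a family 1 did, Slc2a13 (52.2), and of 7 gluconeogenesis genes and 6 further lactate and pyruvate genes 0 did. By the same rule 13.4% of all genes had an induced peak. Against that share 2 of 11, 1 of 8, 0 of 7 and 0 of 6 lie near the background and say nothing particular about these groups. With so few genes, 3 of 10 for the pyruvate dehydrogenase group, 2 of 9 for the pentose phosphate pathway and 3 of 12 for the regulators also lie near it. The shuttle count rests on 3 genes only, and the genes of glycogen and other sugars are named singly. No result for any of these groups follows. The phosphoglycerate kinase gene Pgk1, the remaining enzyme of glycolysis, lies on chromosome X and had its nearest induced peak 7249 kb away. None of the 6 listed genes on X had an induced peak within 5 kb, and the whole chromosome had 14 induced and 47 non-induced peaks.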

How the data were processed

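Peak lists of HA ChIP-seq from induced and non-induced MEFs were used, 1 each, and matched to the titles by the marks for with and without. The input libraries were not used. Per the submitters' processing notes, reads were aligned with Bowtie2 to mm10. The peak names in the files show MACS as the caller. Its version and threshold, the use of input and any pooling were not stated in the sources used. The deposited score of each peak is the authors' own value, with no stated formula, and was ranked within its list, apart from alternatives with 1 score limit for both lists. Without read counts, depth is unknown, and intervals cover counting error only.

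Genes came from the RefSeq table of GRCm38.p6, and strand and starts from RefSeq start windows, which cover 17492 of 21887 protein-coding genes on autosomes, X and Y. Distance ran from the nearest edge of a peak to either end of a gene. Exact intervals are Clopper-Pearson at 95%, and a count of 0 allows 3 counts. Background shares include the members. The members, gene lists, windows and alternatives were chosen with earlier results of these data known. All members are named, and of the other genes those with a peak within 1 kb, except an item that is not reported here. Promoters are shown for the 4 highest-scoring peaks over a start and 2 members without a peak. Alternatives were score limits, lists of equal length, peak midpoints, a 500 bp window and starts only. Any listed start, the whole gene and autosomes only were added after the data were seen. Distances were tested on simulated data. Software was Python 3.11.15 with SciPy 1.17.1, numpy 2.4.6, matplotlib 3.10.9 and pandas 2.3.3.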

Additional observations from a re-analysis of the deposited data

How the results depend on the processing

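Score limits moved the counts of induced peaks. With a score of at least 100, 5 members had an induced peak within 1 kb (background 4.25%) and 6 within 5 kb (5.71%), and of the other glucose genes 5 did. At or above the joint median (61.6), 6 members had one within 1 kb (9.80%) and 8 within 5 kb (13.3%), and of the other glucose genes 11 did. The fewer peaks above a limit are part of each setting. Peak midpoints gave 8 members within 1 kb (11.6%), starts only 9 of the 29 with a known strand (12.7%), the whole gene 13 (18.5%) and autosomal genes only 9 (14.2%). The non-induced count was 0 in each of these settings, with lists of equal length as well. Except for the whole gene, each setting only narrows a rule that already gave 0, so that count was fixed in advance. The non-induced shares over all genes there ran from 0.11% to 5.09%. With the whole gene 0 of 31 members had a non-induced peak (exact interval 0% to 11.2%), against 10.8% of all genes. The number of shared member peaks was 0 with an overlap of 50% of the shorter peak and with a gap of up to 1 kb. Neither could differ, since the closest non-induced peak to any member lay 19.9 kb away. No paired analysis was possible because each group has 1 list, and leaving out a replicate was not possible either. Read depth is unknown, so a missing peak says only that none was listed.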
